A study of Mus musculus with 2 samples.

Results

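Dorsal pallial apical progenitors are the ventricular stem-like cells of the embryonic cortex. They were examined here as 377 barcodes of 1 single-cell RNA-sequencing library of the mouse telencephalic vesicle, out of 20110 barcodes in the 2 libraries of the series. The cells were selected on their own unique molecular identifier (UMI) counts. A barcode needed at least 2500 UMIs and a mitochondrial share under 6%. Its summed UMIs of Sox2, Hes1, Hes5, Vim, Nes, Fabp7 and Slc1a3 (A) had to exceed those of Tubb3, Stmn2, Dcx, Elavl3, Gap43 and Mapt (N). It also needed at least 2 Emx1 UMIs, none of Gsx2 or Nkx2-1, and at most 1 UMI each for Fgf8 plus Fgf17, for Wnt3a plus Wnt2b plus Rspo2, and for Eomes. Of 14283 vesicle barcodes, 11498 met the depth and mitochondrial limits and 8539 of these had A over N, the A>N cells. Sox2 was found in 7471 of the A>N cells and at least 2 UMIs of non-neural genes in 895, so not all were progenitors. Emx1 kept 889 of these, Gsx2 left 817, Nkx2-1 left 705, the Fgf genes left 644, the Wnt and Rspo2 limit left 432 and Eomes left 377. The members were thus 4.42% of the A>N cells (95% exact Clopper-Pearson interval 3.99 to 4.87%). Intervals throughout cover counting error only.

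The vesicle library pooled 3 wild-type embryos of 2 litters, labelled E12 (E11.5 to E12 in the study's methods), and was made with version 3.1 of the kit. The second library held septal explants, made with kit version 2, from embryos labelled as wild type on C57BL/6J. It pooled 8 PGKCre;Rosa26YFP embryos at E11.5 with 4 Dbx1Cre;Rosa26tdTomato embryos at E12.5, each kind from 2 litters. PGKCre recombines in nearly all cells, and Dbx1Cre marks the progeny of Dbx1-expressing progenitors. Single embryos could not be separated within either library, and the 2 kinds of septal embryo were not separated by their reporter transcripts. There was thus 1 sample of each tissue and no test between cells or conditions. The libraries differed in tissue, age, alleles, kit and counting software (Cell Ranger 7.1.0 for the vesicle, 2.1.1 for the septum). Only ratios formed within a library were set side by side. The vesicle table summed to 194821794 UMIs and the septal table to 83103280. The libraries shared 1 barcode sequence.

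The pallium is the dorsal field of the telencephalon that forms the cerebral cortex. Emx1 and Emx2 are homeobox genes of its progenitors, Pax6 is a paired-box factor graded across it, and Gsx2 and Nkx2-1 mark the subpallial eminences below. Signals from its edges pattern the field, with WNT and BMP ligands from the cortical hem on the medial side, FGF ligands from the rostral midline and WNT antagonists from the antihem on the lateral side. Apical progenitors divide at the ventricle, keep Notch signalling on and yield basal progenitors and neurons when proneural genes such as Neurog2 take over.

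The members carried the markers of their label, including those the rule did not use. Emx2 (chr19:59458372-59465357, plus strand, GRCm38) was found in 349 of 377 cells (92.6%), and Pax6 (chr2:105668900-105697364, plus strand) in 323 (85.7%). In 525 Sox2-negative non-neural reference cells of the same library, where these genes should be absent, the shares were 17.3% and 8.95%. Emx1 itself (chr6:85187438-85204462, plus strand) stood at 105 CPM (UMIs of a gene per 1000000 UMIs summed over the cells), by the rule. With every cell thinned to 2500 UMIs, Emx2 remained in 38.2% of members against 17.2% of the 6713 other A>N cells with Sox2 and at most 1 non-neural UMI (the neural others), and against 4.95% of the reference cells.

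Emx1 counts followed depth. The members' median was 23598 UMIs (quartiles 12534 and 54430) against 11054.5 in the 8162 other A>N cells, with a median of 5839 genes against 3904. The 152 members with 2 Emx1 UMIs had a median of 13032 UMIs, and the 25 with 10 or more had 101697. Barcodes over 60000 UMIs numbered 88 of the 377. Scrublet called 10 members doublets (2.65%) against 5.46% of the other A>N cells, and 24 members (6.37%) held at least 2 UMIs of non-neural genes such as Col3a1. CPM ratios below were therefore also computed with the comparison cells weighted to the members' depth, without the doublets, without the deepest barcodes, and with members held to the neural gate (Sox2 present and at most 1 non-neural UMI). The non-neural genes of the gate were Col3a1, Col1a2, Lum, Pdgfrb, Cldn5, Kdr, Cx3cr1 and C1qb.

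Against all other A>N cells the members stood out by a small set of genes. Of 7327 genes with at least 20 CPM in either group, 57 were at least 2-fold higher (0.778%) and 185 at least 2-fold lower (2.52%). The median ratio over all of them was 1.01. With depth weighted the counts were 56 and 195, and when the rule itself was run on thinned counts (305 members) they were 24 and 108. The cells were chosen by the rule, so these counts describe it and carry no test.

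The 12 genes with the largest ratios are given outside the rule's own genes, which include Emx1 (ratio 4.799). Prkg2, a cGMP-dependent protein kinase, stood at 44.7 CPM in members and 9.20 CPM in the others, a ratio of 4.86 (4.42 to 5.34). Ror2, a receptor for WNT5A, stood at 232 against 60.5 CPM (ratio 3.83). Lrrn1, a leucine-rich repeat membrane protein, stood at 268 against 79.9 CPM (3.36). The other high ratios belonged to the exchanger Slc9b2 (4.14), the metalloprotease Adamts18 (3.998), the collagen hydroxylase P3h2 (3.89), the G protein subunit Gna14 (3.82), Siah3 (3.68), the noncoding Gm11266 (3.56), the sulfotransferase Chst2 (3.397), the neurotrophin receptor Ntrk3 (3.34) and the growth factor Vegfc (3.21). Under the 14 other settings of the closing section that can move a ratio all 12 stayed past 2-fold, Prkg2 between 3.20 and 5.46 and Vegfc between 2.29 and 3.73. 

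Transcription factors of the pallium lay on both sides. Of 22 listed, 19 reached 20 CPM outside the rule. Among these 6 were at least 2-fold higher and 5 at least 2-fold lower, against 0.778% and 2.52% of all genes. Their median ratio was 1.68 against 1.01 for all genes. The 6 were Dmrt3 (79.2 against 34.5 CPM, ratio 2.30), Emx2 (206 against 89.3 CPM, 2.30), the LIM homeobox selector Lhx2 (573 against 253 CPM, 2.27), the WNT effector Lef1 (192 against 85.7 CPM, 2.24), Tfap2c (2.07) and Fezf2 (2.02). Against the neural others Tfap2c (1.93) and Fezf2 (1.91) were not past 2-fold. With an Emx1 minimum of 1 UMI Lef1 (1.95), Dmrt3 (1.88) and Fezf2 (1.87) were not. With the rule read from thinned counts the 6 ratios lay between 1.83 and 1.95, all short of it. Emx2os, the antisense transcript that overlaps the 5' end of Emx2 (chr19:59425104-59458635, minus strand), had a ratio of 2.87. Sp8, Otx1, Dmrta2, Neurog2 and Pax6 lay between 1.58 and 1.97, and Nr2f1 (1.08) near 1. The 5 lower were Fezf1 (11.2 against 24.1 CPM, 0.466), Zbtb20 (0.353), the spalt factor Sall3 (0.327), Nr2f2 (64.2 against 243 CPM, 0.264) and Otx2 (17.2 against 132 CPM, 0.131). Fezf1 and Otx2 reached the 20 CPM floor in the other cells alone. Fezf1 was not past 2-fold with an Emx1 minimum of 1 UMI (0.55) or with the rule read from thinned counts (0.572), where Nr2f2 was at 0.498 and Otx2 at 0.394. Nr2f2, a nuclear receptor of caudal and ventral telencephalon, and Otx2, which marks the caudal midline, were thus low in cells that shared high Emx2 and Lhx2.

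The other genes of the 57 described here were picked after their values were seen. Cdon, Gas1 and Boc, the coreceptors for Sonic hedgehog, had ratios of 2.47, 2.45 and 2.13 (185, 349 and 149 CPM in members). Ptch1, the hedgehog receptor and target, was at 24.95 against 113 CPM (ratio 0.221), and its fellow target Gli1 at 1.15 against 5.38 CPM. Hmga2, an early-progenitor chromatin protein (chr10:120361275-120476469, minus strand), stood at 1926 against 749 CPM (2.57). It was in 92.6% of thinned members and also in 51.8% of the thinned non-neural reference cells. Of the 7 described genes of the heterochronic list, Hmga2 was the 1 past 2-fold higher and Trim71 (0.416) the 1 past 2-fold lower. Trim71 reached the 20 CPM floor in the other cells alone. Over all genes 0.778% were past 2-fold higher and 2.52% lower. Lin28b (1.08) and Igf2bp1 (1.04) were near 1. Dach1 (2.43), Creb5 (2.59), the receptor Tnfrsf19 (3.18), the ligand Tgfb2 (3.08) and the teneurins Tenm2 (2.85) and Tenm4 (2.24) were also among the 57.

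**Figure D1:**
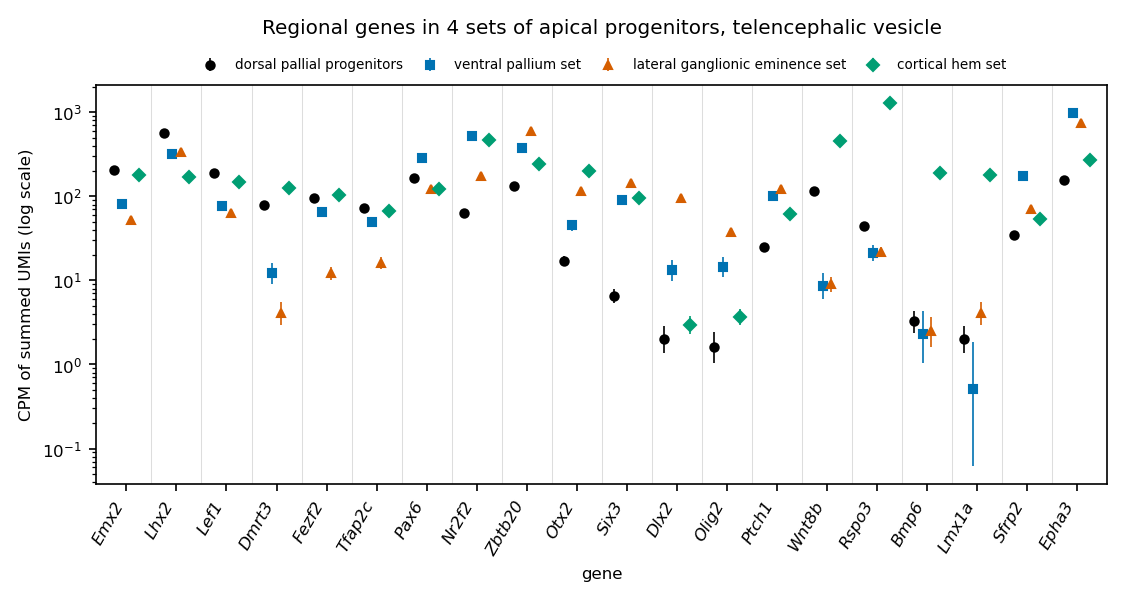
Levels of 20 regional genes in the members and in 3 other sets of A>N cells of the vesicle, as CPM of summed UMIs on a log axis with exact 95% Poisson intervals (counting error only). Members stand above the ventral pallium and lateral ganglionic eminence sets for Emx2, Lhx2, Lef1 and Dmrt3, and below all 3 sets for Nr2f2, Zbtb20, Otx2 and Six3.

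Subpallial genes and many hem genes were lower in the members than in the pooled other A>N cells, which include hem cells. Others of the neighbouring territories were not. Against the neural others, 60 of 7282 genes were at least 2-fold higher (0.824%) and 163 at least 2-fold lower (2.24%). The lowest ratios belonged to the noncoding Sfta3-ps (1.08 CPM in members against 87.6), Gm26871 and Six3os1, the eminence factor Olig2 (1.62 against 47.2 CPM), the hem ligand Bmp4 (1.01 against 20.7 CPM), Pou3f1, the rostral factor Six3 (6.56 against 123 CPM), Dlx2 (2.03 against 37.6 CPM), the sulfatase Sulf1, the roof plate factor Lmx1a, the endocytic receptor Lrp2 and Zfp804b, with ratios from 0.0124 to 0.0692. With the rule read from thinned counts all 12 moved towards 1 in their ratios against all other A>N cells. Bmp4 (0.764) and Lmx1a (0.598) were then no longer past 2-fold lower, Zfp804b was at 0.478 in place of 0.0579, Gm26871 at 0.349 in place of 0.0282, Six3 at 0.28 in place of 0.0567, Six3os1 at 0.266 in place of 0.0282 and Sfta3-ps at 0.156 in place of 0.0140, and the other 5 lay between 0.178 and 0.278. All 6 described genes of the subpallial list were at least 2-fold lower in members than in all other A>N cells (median ratio 0.0679). Part of this is the rule, which excluded Gsx2 and Nkx2-1. Over all genes 0.778% were past 2-fold higher and 2.52% lower in this comparison, which the hem, FGF and antihem counts below share. Of the 8 described hem genes 6 were at least 2-fold lower, and Wnt8b (116 against 108 CPM, ratio 1.08) and Rspo1 (60.4 against 110 CPM, 0.551) were not. Of those lower, Bmp4, Bmp6, Lmx1a, Msx1 and Otx2 also reached the floor in the other cells alone, and Rspo3 reached it in both groups. Of 9 described rostral FGF and septal genes, Fgf15 (0.225), Six3, Spry1 (0.459) and Zic4 (0.455) were lower past 2-fold and 5 were not. Fgf15 (9.2 CPM in members), Six3 and Spry1 (19.4 CPM) again reached the floor in the other cells alone. None of the 3 described ventral pallium (antihem) genes passed 2-fold, with a median ratio of 0.756. The rule capped 3 of the 15 hem genes and 2 of the 15 FGF and septal genes. The 12 other hem genes summed to 273 CPM in members against 769 in the neural others, the 13 other FGF and septal genes to 299 against 622 CPM, and the 6 antihem genes to 348 CPM against 319 in the neural others. Nrg3 was the most abundant antihem gene in both. Only 1 of the 3 described antihem genes lay above 1 against the neural others (median ratio 0.703).

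Markers of other cell types were measured alongside. The 9 erythroid genes summed to 1464 CPM in members, 4580 in the neural others and 8466 in all other A>N cells, with Hbb-y the most abundant and none at 0. Globin RNA was found in every set, at 4840 CPM in the non-neural reference. All 7 described erythroid genes were at least 2-fold lower in members than in all other A>N cells, against 2.52% of all genes. Hbb-bs (9.4 CPM in members) reached the floor in the other cells alone. The members were also deeper, and the part of depth in this was not tested. The 8 mesenchyme genes summed to 41.9 CPM in members, 7.53 in the neural others, 138 in the other A>N cells and 2026 in the reference, led by Col3a1 (14.1 CPM in members). The neural others and the reference were chosen by low and high counts of the gate genes, Col3a1 among them. Their levels were thus partly set by that choice, while the members were not gated. The 10 endothelial and macrophage genes summed to 24.5 CPM, led by Egfl7. Holding the members to the neural gate left 341 cells with 63 genes higher and 203 lower. The part of these RNAs in the other ratios was not tested beyond that. The 8 Cajal-Retzius genes summed to 29.7 CPM against 76.6 in the neural others.

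Regional sets of A>N cells gave closer comparisons. The 180 cells of the ventral pallium set met the rest of the rule with no Emx1 and at least 2 UMIs each of Pax6 and Sfrp2, a combination known from the lateral edge of the pallium. Against them 92 of 7290 genes were at least 2-fold higher in members (1.26%) and 173 at least 2-fold lower (2.37%). Wnt8b (116 against 8.66 CPM), Dmrt3 (79.2 against 12.2 CPM), Sp8 (51.3 against 8.41 CPM) and Lrrn1 (268 against 45.9 CPM) were on the high side. Of the 12 genes with the largest ratios above, Gna14 (1.94) and Siah3 (1.87) were not past 2-fold against this set. Pax6 (163 against 286 CPM) and Sfrp2 (34.6 against 172 CPM) were lower but had chosen that set. Nr2f2 (64.2 against 529 CPM), the guidance receptor Epha3 (159 against 995 CPM) and Nrg1 (64.0 against 203 CPM) had no part in the choice and were lower too.

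Against 366 cells of the lateral ganglionic eminence set (at least 2 Gsx2 UMIs, no Emx1 or Nkx2-1), 121 of 7289 genes were at least 2-fold higher (1.66%) and 216 at least 2-fold lower (2.96%). Dmrt3 stood at 79.2 against 4.08 CPM, Adamts18 at 48.3 against 2.19 CPM, Ror2 at 232 against 18.6 CPM and Neurog2 at 74.0 against 7.96 CPM. The subpallial homeobox genes Dlx1 (1.76 against 62.7 CPM) and Dlx2 (2.03 against 94.4 CPM) lay on the other side.

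Against 1064 cells of the cortical hem set (at least 2 UMIs of Wnt3a, Wnt2b and Rspo2 together), 110 of 7438 genes were at least 2-fold higher (1.48%) and 288 at least 2-fold lower (3.87%). This was the neighbour with the most similar Emx2 (206 against 181 CPM), Fezf2 (94.99 against 103 CPM) and Neurog2 (74.0 against 80.8 CPM). Dmrt3 was higher in the hem set (125 CPM). Lhx2 (573 against 172 CPM), Creb5 (631 against 123 CPM) and the WNT antagonist Sfrp1 (322 against 73.4 CPM) were higher in members. Rspo3 (44.9 against 1288 CPM), Bmp6 (3.24 against 192 CPM) and Lmx1a (2.03 against 181 CPM) were lower, as were the BMP targets Id1 (11.4 against 330 CPM) and Id3 (97.6 against 1407 CPM). Low hem RNA was not particular to the members. The 15 hem genes summed to 276 CPM in members and 4038 in the hem set. They summed to 105.5 CPM in the ventral pallium set and 199.8 in the lateral ganglionic eminence set. Bmp4 stood at 1.01 CPM in members and 1.02 in the ventral pallium set (4 UMIs), and Lmx1a at 2.03 and 0.51 CPM (2 UMIs).

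Levels on both sides of the Emx1 threshold differed by gene. Cells that met every other part of the rule numbered 3074 with no Emx1 UMI, 397 with 1 and 152 with 2. Their Emx2 levels were 64.0, 145 and 183 CPM, against 206 CPM over all members. Lhx2 ran at 247, 427 and 501 CPM and Dmrt3 at 9.11, 33.3 and 61.1 CPM. Pax6 was also higher at each step, at 118, 172 and 184 CPM, but stood at 163 CPM over all members. Summed levels do not show whether single cells were intermediate or the sets were mixtures. Six3 ran the other way at 73.6, 35.8 and 9.25 CPM, and Nr2f2 at 310, 132 and 91.2 CPM. Median depth also differed among these sets, at 9390, 11727 and 13032 UMIs, as did the share of cells with at least 2 non-neural UMIs, at 17.1, 5.79 and 6.58%, and Sox2 was found in 2290, 369 and 144 cells. Their part in these differences was not tested.

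**Figure D2:**
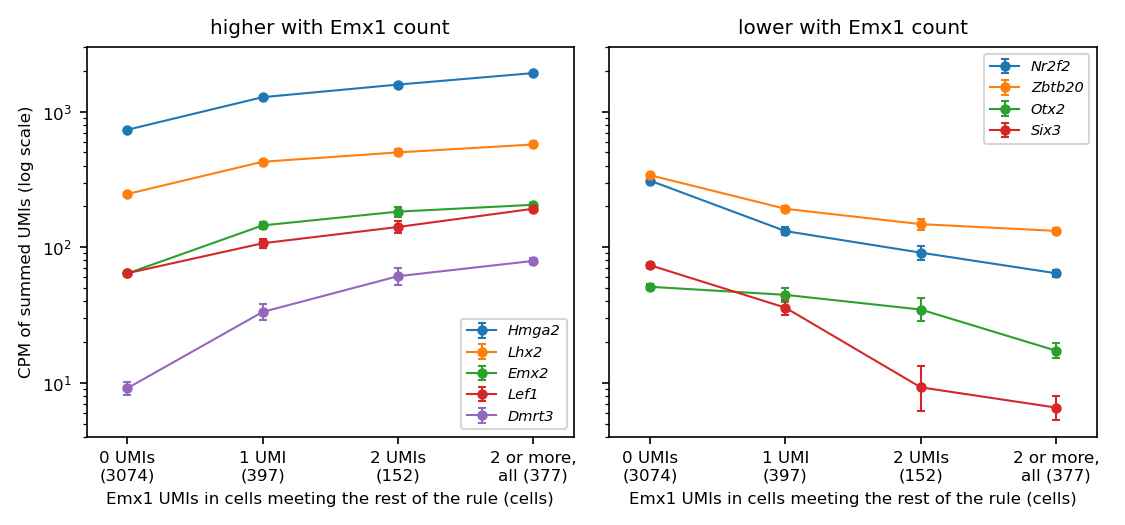
CPM of summed UMIs (log axis) against the number of Emx1 UMIs in cells that met the rest of the rule, with exact 95% Poisson intervals and cell numbers in brackets. Emx2, Lhx2, Lef1, Dmrt3 and Hmga2 are higher at each step from 0 to 2 Emx1 UMIs and Nr2f2, Zbtb20, Otx2 and Six3 are lower.

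In the vesicle few genes of the Notch, WNT and FGF lists passed 2-fold, and few did over all genes (0.778% higher and 2.52% lower). None of the 13 described Notch genes did, the receptor Notch1 being at 117 against 130 CPM and the effector Hey1 at 42.1 against 24.1 CPM (ratio 1.74). Of 16 described WNT genes Lef1 was the 1 higher and Lgr4, an R-spondin receptor, the 1 lower (4.12 against 40.3 CPM). Sfrp1 (1.94) and the receptor Fzd1 (1.77) were next on the high side and the common target Axin2 was at 0.828. Of 11 described FGF pathway genes only Spry1 passed 2-fold, and the receptors Fgfr1 (1.01) and Fgfr3 (1.40) and the target Etv5 (1.11) did not. Under the same rule in the septal explants 4 of 11 were past 2-fold lower (Etv4, Il17rd, Spry1 and Spry2) and 0 higher. Over all genes there 1.6% were lower and 0.907% higher. Of the other 2 lists, Hey1, Fzd9 and Sfrp1 were past 2-fold higher there and Tcf7l2 lower.

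Cell cycle and progenitor lists were counted next. None of the 30 S phase and none of the 34 G2/M genes passed 2-fold, with 0.778% higher and 2.52% lower over all genes. Their median ratios were 1.01 and 0.942 against all other A>N cells and 0.978 and 0.914 against the neural others. No described apical progenitor gene outside the rule passed it either, with Sox9 at 245 against 196 CPM, Sox3 at 127 against 88.7 CPM and Sox1 at 55.5 against 82.6 CPM. Among the rule's own apical genes Fabp7 was at 262 against 558 CPM and Slc1a3, a radial glial glutamate transporter, at 33.1 against 60.9 CPM. Of 7 described genes of radial glial onset, Ednrb and Mt3 were past 2-fold lower (0.131 and 0.275) and 5 were not past it. Ednrb and Mt3 reached the 20 CPM floor in the other cells alone. Hopx, a radial glial gene below the 20 CPM floor, was at 18.7 against 7.78 CPM (2.41). Of 7 described basal progenitor genes, Gadd45g (40.6 against 91.9 CPM) and Insm1 (7.30 against 24.8 CPM) were lower past 2-fold, with Eomes limited by the rule. In the septal explants, where the same rule was applied (below 20 CPM for Ednrb and Insm1), neither list had a gene past 2-fold lower, and Ttyh1 (2.096), Aldoc and Neurog2 (3.21) were past 2-fold higher. Over all genes described in that library 0.907% were past 2-fold higher and 1.6% lower. Dissociation genes did not pass 2-fold in 6 of 6, and the immediate early gene Fos, below the 20 CPM floor, was at 1.69 against 17.8 CPM.

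Genes of the adhesion system that the study addressed were also measured. Dbx1, its homeobox factor, was at 0.609 CPM (9 UMIs) against 5.18 CPM in the others (ratio 0.118) and 11.0 CPM in the ventral pallium set. With the rule read from thinned counts the ratio was 0.714, no longer past 2-fold. A Dbx1 UMI was found in 8 of 377 members (2.12%, 0.921 to 4.14%), against 2 of 525 reference cells (0.381%). After thinning, 0 of 377 members and 0 of the reference cells held one, which allows a share of members with a UMI at that depth of up to 0.796% (3 counts of the total) and is no limit on cells expressing the gene. Pcdh8, its protocadherin, stood at 2.91 against 6.75 CPM and was in 0.531% of thinned members against 0.381% of the reference cells, and so was not above background at that depth. Pcdh9 (430 against 257 CPM, ratio 1.67), Pcdh19 (168 against 114 CPM, 1.48) and the cadherin Cdh2 (748 against 617 CPM, 1.21) were in 47.7, 24.9 and 79.6% of thinned members, against 14.7, 9.71 and 23.4% of the reference cells. None of the 7 described delta-protocadherins and none of the 7 described classical cadherins passed 2-fold, which 0.778% (higher) and 2.52% (lower) of all genes did. Of 13 described Eph and ephrin genes, Epha3 (0.406), Epha5 (0.355) and Ephb1 (0.254) were lower past 2-fold, while Efnb1 (1.64), Efnb2 (1.54) and Epha4 (1.51) had the highest ratios. Jag1 (1.35) and the neuronal factor Nr4a2 (1.20) were near 1.

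The same rule was then applied to the septal explants, whose cells had not chosen the members. It kept 853 of 3891 A>N cells (21.9%), with a median of 16313 UMIs against 13274 in the remaining 3038. There 51 of 5626 genes were at least 2-fold higher (0.907%) and 90 at least 2-fold lower (1.6%). Scrublet called 6 of 5775 cells (0.104%) in that library, too few to serve as a doublet filter. The study's methods name Scrublet for doublet removal, and whether the septal counts had been deposited after it was not tested. In 5180 genes described in both libraries, 29 were past 2-fold higher in the vesicle and 42 in the septum, with 19 shared (65.5% and 45.2% of each list). All 29 lay above 1 in the septum, as did 59.7% of all genes. Of 74 lower in the vesicle and 64 in the septum, 46 were shared (62.2% and 71.9%), 7 of them globin genes. The rule used the same genes in each library, so the overlap is partly built in.

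The shared higher genes included Lrrn1 (3.36 in the vesicle and 3.63 in the septum), Chst2 (3.397 and 2.55), Tgfb2 (3.08 and 4.13), Creb5 (2.59 and 2.67), Lhx2 (2.27 and 2.71), Dmrt3 (2.30 and 3.32), Tfap2c (2.07 and 3.09), the nuclear factor Nfix (2.27 and 3.00), and the hedgehog coreceptors Cdon (2.47 and 2.59) and Gas1 (2.45 and 2.60). The other 10 of the 12 leading genes were under 20 CPM in the septum, Prkg2 at 6.33 against 1.74 CPM and Ror2 at 17.1 against 4.11 CPM, and were left out of these counts. Six3 (0.0567 and 0.0545), Olig2 (0.0384 and 0.0789), Otx2 (0.131 and 0.161), Zbtb20 (0.353 and 0.375) and the imprinted Cdkn1c (0.178 and 0.272) were shared on the low side. Hmga2 was past 2-fold in the vesicle only (septal ratio 1.43). Epha5 was the 1 gene past 2-fold in opposite directions.

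**Figure D3:**
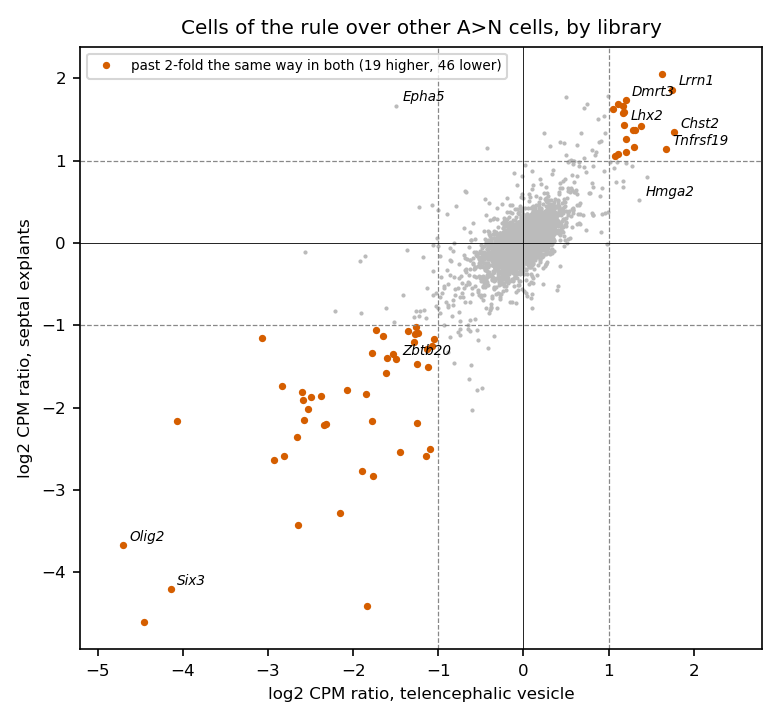
CPM ratio of the rule's cells over other A>N cells in the telencephalic vesicle (horizontal) and in the septal explants (vertical), both as log2, for 5180 genes with dashed lines at 2-fold. The 19 and 46 genes past 2-fold the same way in both are coloured, and Epha5 lies alone in the upper left.

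Members varied among themselves. In counts thinned to 2500 UMIs the variance over the mean (Fano factor) had a median of 1.02 over 6927 genes, and 106 genes reached 1.5. Of the 15 highest, 6 were globins, led by Hbb-y at 37.8. The guidance receptor Dcc had a Fano factor of 18.0, was found in 69.8% of members and reached 77 UMIs in a cell. The cell cycle inhibitor Cdkn1c (6.07, in 11.1% of members), Gadd45g (4.28, in 10.1%) and the zinc finger factor St18 (3.56, in 3.71%) were also among them, the shares being cells with a UMI after thinning. The remaining 5 were Gm29478, Tmsb4x, Malat1, Gm42418 and Col3a1, the last in 2.65% of members.

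Members differed along genes known to be graded across the pallium. They were split into groups of 125, 127 and 125 cells by the log2 ratio of medial genes (Wnt8b, Dmrt3, Lef1, Emx2) to lateral genes (Pax6, Sfrp2, Meis2), with median depths of 32341, 21258 and 21653 UMIs. Of 7249 genes apart from those 7, 213 were at least 1.5-fold higher in the most medial group (2.94%) and 269 at least 1.5-fold lower (3.71%). Wnt8b ran from 5.25 CPM in the lateral group to 70.2 and 310 CPM, as one of the genes that set the split. The long noncoding Rmst, not among them, ran at 69.5, 270 and 655 CPM. The transcriptional regulator Lmo2 ran at 5.78, 28.0 and 95.8 CPM, and the WNT agonist Rspo3 at 8.75, 31.9 and 106 CPM. Lrfn2, the antagonist Wif1, the WNT target Sp5, Bmp7, Gng11, Rspo1 and Tgfb2 completed the 10 highest, with ratios of 8.38 to 22.6. Hem genes other than Wnt8b, one of the genes that set the split, summed to 299 CPM in the medial group against 60.03 CPM in the lateral. Endothelial and macrophage genes moved with this split too, at 50.6 CPM in the medial group and 13.3 CPM in the lateral, with 39 Cdh5 UMIs against 0 and 41 Kdr UMIs against 2. Without doublets and with the neural gate they stood at 10.98 and 12.52 CPM, and Gng11 was no longer among the 10 highest. Erythroid genes were at 1003, 1973 and 1520 CPM from lateral to medial, and at 1031, 1219 and 1567 CPM after that cleaning. Mesenchyme genes were at 11.0, 92.5 and 28.4 CPM before it and at 6.66, 8.87 and 8.68 CPM after, and called doublets numbered 0, 6 and 4. The part of these RNAs in the split was not tested beyond that. The gate reads Kdr, Cldn5, Cx3cr1 and C1qb of the endothelial and macrophage list and Col3a1, Col1a2, Lum and Pdgfrb of the mesenchyme list. The lower sums of both lists after it were thus partly set by the gate itself.

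Adhesion and guidance genes were among the 10 highest of the lateral group. Epha3 ran at 307, 94.8 and 34.1 CPM from lateral to medial, the adhesion molecule Cadm2 at 253, 74.1 and 24.5 CPM and Shisa2, which restrains FGF and WNT receptors, at 90.5, 35.1 and 5.90 CPM. Gm29260, Fstl5, the heparan sulfate enzyme Hs3st3a1, Plce1, Thsd4, Igsf11 and the KIT ligand Kitl completed the 10. Sfrp1 (421 CPM lateral and 192 medial) and Pcdh9 (654 and 211 CPM) were also higher laterally, and Sp8 (31.3 and 74.5 CPM) and Axin2 (19.8 and 45.4 CPM) medially. Emx1 stood at 74.6 and 134 CPM, but the rule had chosen the members by it and the groups differed in depth. Of the 12 leading genes, Lrrn1 (172 and 396 CPM), Gm11266, P3h2, Chst2 and Ror2 were past 1.5-fold higher medially, and Adamts18 (61.1 and 37.2 CPM) and Siah3 (39.6 and 20.9 CPM) laterally. Lhx2 (523 and 612 CPM) and Hmga2 (2057 and 1761 CPM) were within 1.5-fold. Without doublets and with the neural gate, 215 and 267 genes were past 1.5-fold and 9 of 10 leading genes on each side were the same.

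**Figure D4:**
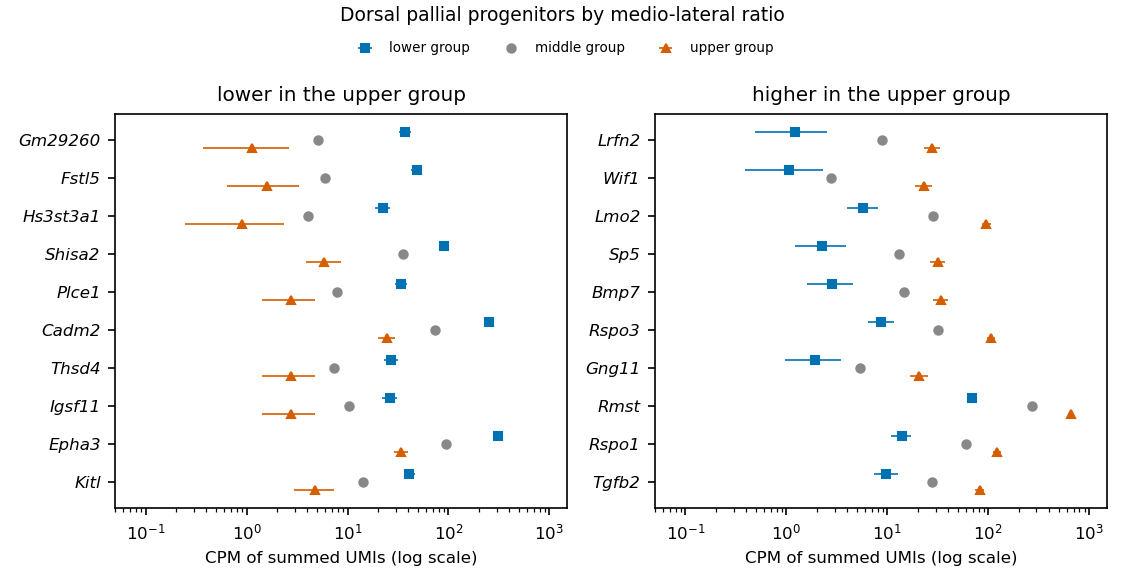
CPM (log axis) of the 10 genes farthest apart in each direction between the outer groups of the members by medio-lateral ratio, lower group lateral and upper group medial, with exact 95% Poisson intervals for the outer groups. The middle group lies between the outer groups for each of the 20 genes.

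A second split followed the neurogenic share, the fraction of UMIs from 10 proneural and delta pathway genes including Neurog2, Dll1 and Gadd45g. The lower, middle and upper groups of 125, 127 and 125 cells had median depths of 21090, 37274 and 16031 UMIs. Of 7216 other genes, 81 were at least 1.5-fold higher in the upper group (1.12%) and 78 at least 1.5-fold lower (1.08%). The lower group held 99.1 CPM of mesenchyme genes against 20.1 CPM in the upper, and Col3a1 led its list. The 337 members without doublets and within the neural gate were therefore split again, giving 86 and 81 genes. Of the 10 leading genes, 7 were the same on the higher side and 1, Gna14, on the lower. In these cells Ebf2, an early neuronal factor, stood at 0.537 CPM in the lower group (2 UMIs) and 34.4 CPM in the upper, a ratio of 64.1 (17.4 to 535). St18 ran from 0.806 to 23.6 CPM and the neural splicing regulator Srrm4 from 21.8 to 91.7 CPM. Cdkn1c (20.1 to 75.2 CPM) and the RNA-binding Elavl4 (49.1 to 137 CPM) were also higher. Alcam (137 to 68.1 CPM), Zfhx4 (198 to 105 CPM) and Gna14 (35.4 to 14.4 CPM) were lower.

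Progenitor and pallial genes differed in how they ran along this split. Over all 377 members, Neurog2 ran at 12.6, 52.9 and 169 CPM by construction of the split, while Sox2 ran at 364, 354 and 335 CPM, Lhx2 at 531, 605 and 567 CPM and Emx2 at 210, 213 and 190 CPM, each from the lower to the upper group. Of the 12 leading genes, Gna14 (33.2 to 13.4 CPM), P3h2 (49.8 to 30.9 CPM) and Ntrk3 (83.2 to 53.0 CPM) were past 1.5-fold lower in the upper group. Nr2f2 (40.9 CPM in the lower group and 96.6 in the upper), Sall3 (17.5 and 35.7 CPM) and Otx2 (15.4 and 24.9 CPM) were past 1.5-fold higher in the upper group. So was Hes5 (88.8 and 141 CPM), one of the genes the rule used. The 30 S phase genes summed to 4395, 4590 and 4541 CPM, and the neuron list to 608, 616 and 835 CPM.

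**Figure D5:**
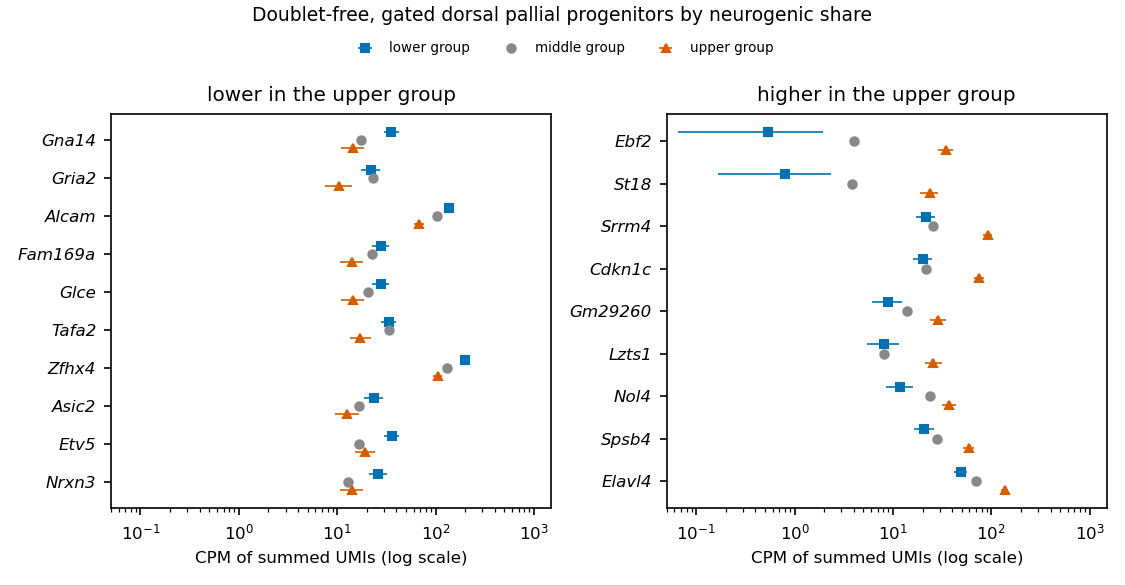
CPM (log axis) of 9 genes higher and 10 lower, among those farthest apart between the outer groups by neurogenic share, in 337 members without called doublets and within the neural gate, with exact 95% Poisson intervals for the outer groups. Ebf2 and St18 are near 0 in the lower group and reach 34.4 and 23.6 CPM in the upper.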

How the data were processed

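Single-cell RNA-seq was analysed from 2 libraries, 1 of each tissue. The authors deposited UMI counts per gene and barcode, unnormalized, made with Cell Ranger 7.1.0 (telencephalic vesicle) and 2.1.1 (septal explants) per the submitters' processing notes, on mm10, with YFP and tdTomato added for the septum. Per the study's methods default parameters were used for the septal explants. Settings for the vesicle were not given in the sources used here, so whether its counts include introns is not known. The counts were read with scanpy 1.11.5 and pandas 2.3.3 under Python 3.11.15, and intervals came from scipy 1.17.1.

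Counts were summed over cells and divided by their total (CPM). Ratios were described for genes with at least 20 CPM in either group, with rule genes left out of counts. Exact Poisson, Clopper-Pearson and conditional binomial intervals at 95% cover counting error only. With 1 library of each tissue no test was run. Scrublet (expected doublet rates 9.20% and 4.62%) called 685 of 11498 vesicle cells (5.96%), which were kept in the main values and left out in an alternative. To compare shares, cells were thinned to 2500 UMIs. The ratio and thinning steps were tested on simulated data. Gene positions were from GENCODE vM21 (GRCm38), and 78 features with repeated symbols were not named.

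The members, the 29 gene lists and the comparisons were chosen with earlier results of these data known. Named genes were the 12 with the highest ratio against other A>N cells and the 12 with the lowest against the neural others, list members, the 10 farthest apart in each direction between outer groups of members, the 15 highest Fano factors and the genes the study addressed. The remaining genes named (Emx2os, Tnfrsf19, Tgfb2, Creb5, Dach1, Tenm2, Tenm4, Cdon, Gas1, Boc, Nfix, Cdkn1c, Id1 and Id3 in ratios) were picked after their values were seen. Results for 2 genes are not reported here.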

Additional observations from a re-analysis of the deposited data

Results flagged for a closer look

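Epha5, an ephrin receptor (chr5:84054761-84417382, minus strand, GRCm38), stood out because its ratio ran in opposite directions in the 2 libraries. In the telencephalic vesicle it was at 21.4 CPM in the members and 60.4 CPM in the other A>N cells, a ratio of 0.3551 (0.317 to 0.397, counting error only). In the septal explants the same rule gave 24.4 against 7.68 CPM, a ratio of 3.17 (2.73 to 3.69). The difference between the libraries was not tested, and tissue, age, alleles, kit and Cell Ranger version cannot be told apart. Within the members Epha5 ran at 42.2, 10.5 and 6.13 CPM from the lateral to the medial group, and it stood at 108 CPM in the ventral pallium set and 153 CPM in the lateral ganglionic eminence set.

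The vesicle table also held a LacZ feature with 11 UMIs in 9 cells of a library labelled wild type, none of them in the members. Its source was not tested.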

How the results depend on the processing

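The main counts were 377 members, 57 genes at least 2-fold higher, 185 lower, 19 higher in both libraries, 159 past 1.5-fold between outer neurogenic groups and 482 between outer medio-lateral groups. The members numbered 774 with an Emx1 minimum of 1 UMI and 225 with 3. With the rule read from counts thinned to 2500 UMIs (305 members), the 5 gene counts were 24, 108, 5, 604 and 760. A 50 CPM floor gave 97 lower, 10 in both libraries, 50 neurogenic and 245 medio-lateral, and a 5 CPM floor 499, 38, 742 and 1171. A 1.5-fold limit gave 161 higher, 357 lower and 60 in both libraries. A mean of per-cell CPM gave 93 higher and 428 neurogenic, and leaving out barcodes over 60000 UMIs, an alternative chosen after seeing the data, gave 442 neurogenic. The causes were not tested, except that floor and fold limits change the genes counted by construction.

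The remaining settings moved no count by over 1.5 times: at least 5000 UMIs, mitochondrial share within 3 median absolute deviations, no doublets, neural comparison cells, depth weighting, totals without mitochondrial, ribosomal and globin genes, A over 2N and, chosen after seeing the data, the neural gate with and without doublets. Floors and fold limits cannot move a ratio. Of 742 alternative ratios over 53 named genes and the 14 other settings, 538 moved by less than the counting interval, 204 by more, and 0 of the called ratios changed direction. Nr2f1 (0.914 to 1.11) and Neurog1 (0.627 to 1.27) crossed 1 and have no direction. Emx2 ranged from 1.93 to 2.77, Lhx2 from 1.83 to 2.49 and Pax6 from 1.21 to 1.66.

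Both libraries pooled embryos, so spread between embryos is unknown, and fewer cells of a type cannot be told from less RNA per cell. A minimum of 2 Emx1 UMIs favours deep barcodes. No paired analysis was possible because there was 1 library of each tissue and no test.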
